A study of Rattus norvegicus with 2 samples.

Results

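Cells rich in type I and type III collagen RNA were described in single-cell libraries from the zygomatic maxillary suture of the rat, where soft tissue joins the zygoma to the maxilla. Suture fibroblasts hold this joint together and lay down a matrix of fibrillar collagens, tenascins and periostin, and osteoblasts at the bone fronts make a collagen-dense osteoid that then mineralises. Osteoblasts are recognised by Bglap (osteocalcin) and Ibsp (bone sialoprotein), and osteocytes, the cells that osteoblasts become inside bone, by genes such as Dmp1, Phex and Pdpn. Pulling a suture apart is known to stretch its fibrous tissue and to bring new bone at its edges.

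The libraries came from 4-week-old rats. In the distraction library a W-shaped spring of 0.4 mm nickel-titanium wire, set to an initial force of 20 g, had pulled on the suture for 7 days. In the sham library holes were drilled and no spring was placed. Each group is 1 library, and the number and sex of animals behind a library are not given, so no difference between the libraries has a replicate check and no p-value is reported. The crushed tissue was put on the BD Rhapsody, which traps single cells in wells and counts each RNA molecule by a unique molecular identifier (UMI). The exact 95% intervals below cover counting error only, treat UMIs as independent, and are given per gene or per share with no adjustment over genes.

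The members were selected on measured values. Cells needed 500 or more UMIs, 200 or more genes, and a mitochondrial share below 25% to be kept, and 125 of the 9220 kept cells met the rule for collagen-producing cells. In them Col1a1 and Col3a1 made at least 1% of all UMIs, the neutrophil genes S100a8 and S100a9 made under 2%, and the cells held under 3 UMIs of the endothelial genes Cdh5, Emcn, Flt1 and Tek and under 5 of the mural genes Rgs5, Abcc9 and Notch3. Cells with 10 or more UMIs of Bglap and Ibsp together form the osteoblast side, and the rest form the fibroblast side. There were 61 fibroblast-side and 14 osteoblast-side cells in the distraction library, and 23 and 27 in the sham library. Before the limits on other cell types 78 and 51 cells had the collagen share, and neutrophil genes removed 1 distraction cell, mural genes 2 distraction cells and endothelial genes 1 sham cell.

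These values chose the cells and are given as a description. Collagen RNA took a median 6.77% of the UMIs of a distraction fibroblast-side cell and 4.38% of a sham one, against 15.8% and 18.8% on the osteoblast side. The lowest collagen share inside the rule was 1.12% in the distraction and 1.08% in the sham library. Among cells left out by the collagen limit alone, the highest share was 0.589% and 0.904%. In both libraries the osteoblast-side cell nearest the limit held 13 UMIs of Bglap and Ibsp, and the fibroblast-side cell nearest it held 9. Against the names of the sides, Dcn (decorin), often used as a fibroblast marker, was at a higher level on the osteoblast side. Sp7 (osterix, an osteoblast transcription factor) was at 0 in all 125 cells. The summed level of Alpl (tissue-nonspecific alkaline phosphatase) differed less than 2-fold between the sides, though a larger share of osteoblast-side cells held it. The sides are therefore named by the rule alone.

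Depth differed between the groups of cells. The median fibroblast-side cell held 11466 UMIs in the distraction and 5563 in the sham library, and the median osteoblast-side cell 11702 and 15044. Summed over cells, the distraction fibroblast side holds 781997 UMIs, the sham fibroblast side 142520, the distraction osteoblast side 189723 and the sham osteoblast side 474498. The libraries share 22 cell labels, 1 of them a collagen-producing cell of the distraction library. Of other cell types, the neutrophil list of 6 genes reached 1740 counts per 1000000 UMIs (CPM) on the distraction and 561 on the sham fibroblast side, with 425 UMIs in 1 distraction cell, and 875 and 603 CPM on the osteoblast side. All 687 platelet-gene UMIs of the sham fibroblast side and 33 of its 34 endothelial-list UMIs lie in 1 cell of 23796 UMIs. The mural list came to at most 4 UMIs in any group of cells and the muscle list to at most 5, and Cdh5, Emcn and Tek were at 0 in all of them.

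Promoter sequence is shown for 3 genes on which the contrast between the sides turns, Bglap and Ibsp from the osteoblast side and Postn from the fibroblast side. Each is the 250 bases before the gene's start in RefSeq, build GRCr8, which is not the build named in the submitters' processing notes (Rnor_6.0). Bglap lies on the minus strand at chr2:176137319-176137568, Ibsp on the minus strand at chr14:5757243-5757492 and Postn on the plus strand at chr2:140677811-140678060. Capitals mark ACCACA or its reverse complement TGTGGT, the core letters of the motif that RUNX factors, among them the osteoblast regulator Runx2, are known to bind.
Bglap promoter: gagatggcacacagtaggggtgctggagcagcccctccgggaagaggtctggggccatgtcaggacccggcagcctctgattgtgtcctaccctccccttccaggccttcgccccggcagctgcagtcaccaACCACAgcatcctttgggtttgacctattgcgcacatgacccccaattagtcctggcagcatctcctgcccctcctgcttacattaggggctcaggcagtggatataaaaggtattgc
Ibsp promoter: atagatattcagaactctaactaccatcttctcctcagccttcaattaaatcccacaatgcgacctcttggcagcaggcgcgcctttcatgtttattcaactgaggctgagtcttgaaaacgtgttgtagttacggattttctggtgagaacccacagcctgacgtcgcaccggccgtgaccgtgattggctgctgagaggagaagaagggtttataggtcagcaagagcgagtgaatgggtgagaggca
Postn promoter: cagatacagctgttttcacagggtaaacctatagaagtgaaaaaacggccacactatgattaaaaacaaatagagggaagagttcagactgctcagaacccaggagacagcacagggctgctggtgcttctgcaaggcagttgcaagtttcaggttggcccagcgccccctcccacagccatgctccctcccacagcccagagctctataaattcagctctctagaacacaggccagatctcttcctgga
The Bglap window holds 1 match, which begins 118 bases before the start, and the Ibsp and Postn windows hold none of these letters in that order. Of 27457 promoters of the same length 14.1% hold either string, searched on both strands. Of the 83 genes at higher levels on the osteoblast side in both libraries (below), 57 have a promoter in the table and 14.04% of these hold the motif. Of the 349 genes at lower levels, 260 have a promoter and 6.15% hold it, beside 9.31% of the 2760 promoters found for genes that were measured or listed.

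Collagen-producing cells made up a larger share of the distraction library, and fewer of them were on the osteoblast side. They were 75 of 4037 kept cells after distraction, 1.86% (1.46 to 2.32%), and 50 of 5183 after sham surgery, 0.965% (0.717 to 1.27%), a ratio of 1.93 (1.33 to 2.81). The fibroblast side was 1.51% of the distraction and 0.444% of the sham library, a ratio of 3.41 (2.08 to 5.77). The osteoblast side was 0.347% and 0.521%, a ratio of 0.666 whose interval of 0.323 to 1.32 includes 1. Among collagen-producing cells the osteoblast side took 18.7% (10.6 to 29.3%) in the distraction and 54% (39.3 to 68.2%) in the sham library. With 1 library a group, these shares depend also on how the tissue was cut and broken up, which was not tested. Few cells were dividing by their RNA: at least 2 UMIs of the mitotic genes Mki67 and Top2a were held by 3 of 61 and 2 of 23 fibroblast-side cells, and by 2 of 14 and 1 of 27 osteoblast-side cells, in the distraction and sham library.

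**Figure D1:**
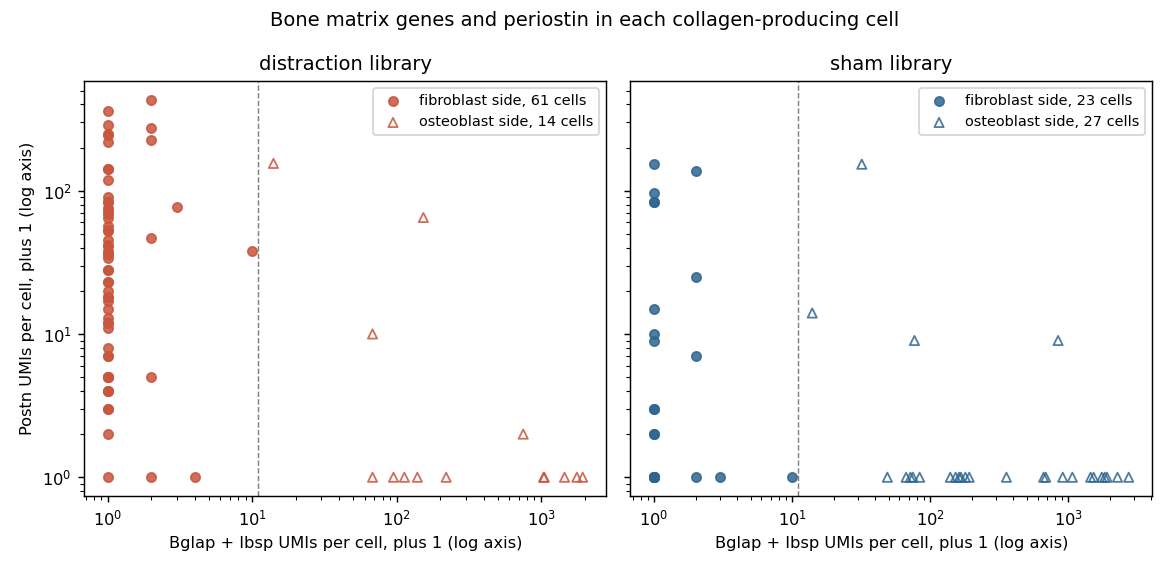
UMIs of Postn plus 1 (vertical, log scale) against UMIs of Bglap and Ibsp plus 1 (horizontal, log scale), 1 point a cell. Each library has its own panel and colour, with filled circles for the fibroblast side and open triangles for the osteoblast side. Cells of the osteoblast side lie to the right of the dashed line, which marks the limit of 10 UMIs. Most of them sit at the bottom edge with no Postn, while 58 of 61 distraction and 14 of 23 sham fibroblast-side cells hold Postn.

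The sides differed in some bone matrix genes, in type III collagen and in many genes of soft connective tissue, with calls shared by both libraries. A gene was called different when its summed CPM differed at least 2-fold with the interval on 1 side of 1, at 50 CPM or more on the higher side and 30 UMIs or more in all, in at least 3 cells and 10% of the cells of that side, and with no cell holding over 50% of that side's UMIs. Because the sides were cut from these same cells, the contrast is a description and not a test. Of 2286 genes measured in both libraries, 83 were higher on the osteoblast side in both (3.63%) and 349 lower in both (15.3%). Within 1 library 4.66% of 3007 genes were higher and 38.5% lower in the distraction cells, and 10.3% of 2485 were higher and 21.2% lower in the sham cells. The median gene was itself lower on the osteoblast side, by a log2 ratio of -0.81 in the distraction and -0.36 in the sham library. With the genes of the rule left out of the total, these medians were -0.54 and -0.13, and 216 genes stayed lower in both libraries.

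**Figure D2:**
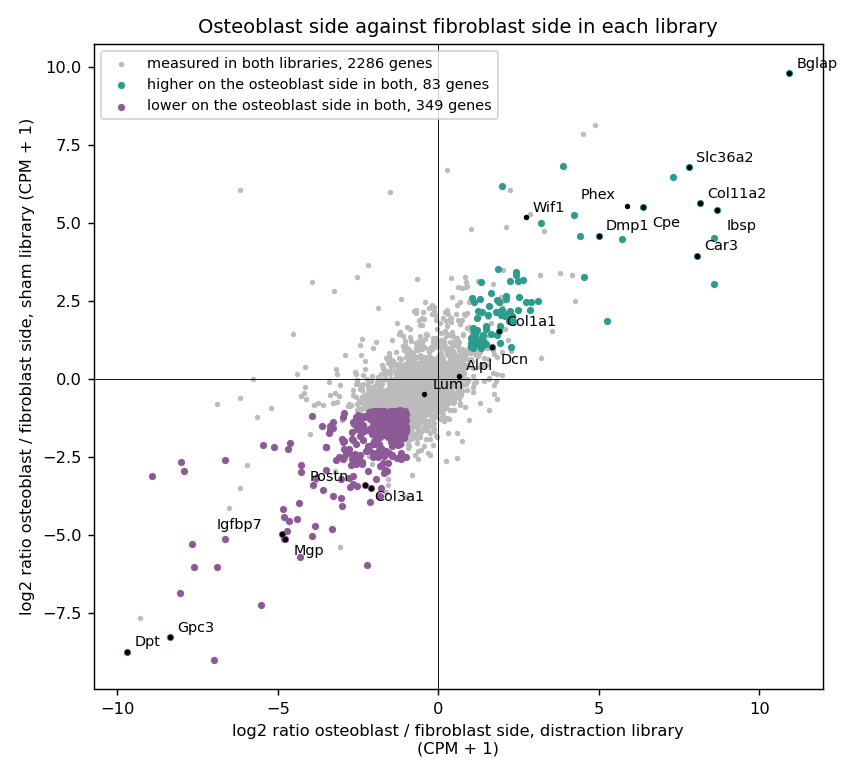
Log2 ratio of osteoblast-side over fibroblast-side CPM (1 CPM added) in the distraction library (horizontal) and the sham library (vertical) for 2286 genes, 1 point a gene. The 83 genes higher on the osteoblast side in both libraries lie at the upper right, led by Bglap, and the 349 lower in both lie at the lower left, with Dpt and Gpc3 among the farthest.

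Bglap and Ibsp, which draw the line between the sides, differ by construction. Bglap, a calcium-binding protein of bone, stood at 44713 CPM against 21.7 in the distraction library and at 38316 against 42.1 in the sham library. Ibsp, a mineral-nucleating sialoprotein, stood at 2003 against 3.84 CPM and 2740 against 63.2 CPM. On the sham fibroblast side 1 cell of 3821 UMIs held 7 Ibsp UMIs. Single cells varied widely: Bglap ran from 9 to 1868 UMIs with a median of 175 in the 14 distraction cells, and from 2 to 2715 with a median of 176 in the 27 sham cells. No fibroblast-side cell held over 9 Bglap UMIs, but Bglap was also found in 6.66% of distraction and 16.1% of sham B-lineage cells (median depth 6141 and 5286 UMIs), which should lack it. On the fibroblast side it was found in 13.1% and 21.7% of cells. After thinning every cell to 4000 UMIs these shares were 5.56% and 7.69% on the fibroblast side and 3.85% and 8.96% in B-lineage cells. No Bglap expression is therefore read from the fibroblast side.

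Other bone genes were not part of the rule's sums. Dmp1, an acidic phosphoprotein of late osteoblasts and osteocytes, stood at 153 against 3.84 CPM in the distraction library, and at 1212 against 49.1 CPM in the sham library, which is 39.8-fold (12.3 to 204) and 24.7-fold (11.9 to 61.6). The call in both libraries was lost without the top cell of each gene. Smpd3, a sphingomyelinase needed for mineralisation, stood at 880 against 1.28 CPM and 533 against 63.2 CPM. Spp1 (osteopontin) was 2498 against 83.1 CPM after distraction, where 1 cell held 54.9% of the osteoblast side's UMIs so that no call was made, and 2255 against 7.02 CPM after sham surgery, where it was called higher. Of 10 measured members of the list of bone matrix and mineralisation genes, 4 were higher in both libraries (Bglap, Ibsp, Dmp1 and Smpd3), of which Bglap and Ibsp were fixed by the rule. Without them 2 of 8 were higher and 1 lower in both libraries. Mgp, the matrix Gla protein that holds back mineralisation in soft tissue, was the 1 member lower in both, at 73.8 against 2061 CPM and 54.8 against 1944 CPM. Within single libraries the list, still without Bglap and Ibsp, had 2 of 8 members higher and 4 lower (Mgp, Enpp1, Slc20a1 and Pdpn) in the distraction cells, and 5 of 11 higher and 1 lower in the sham cells. Its median log2 ratio was then -0.18 in the distraction and 3.06 in the sham library, or 2.46 in the sham library with genes at 0 set to their bound. So the libraries did not share a direction for the list as a whole. Alpl, which frees phosphate for mineral, was not called, with ratios of 1.55 (1.26 to 1.90) and 1.07 (0.862 to 1.34). In the sham library 1 osteoblast-side cell of 34339 UMIs held 167 Alpl UMIs, while 19 other cells of that side together held 144.

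Fibrillar collagens split between the sides. Col1a1, the main chain of bone and tendon collagen, stood at 178903 CPM on the osteoblast side and 48753 CPM on the fibroblast side after distraction, and at 171362 and 59430 CPM after sham surgery. Its partner chain Col1a2 was higher 5.37-fold (4.12 to 7.03) and 10.2-fold (5.64 to 20.6). The type XI chains, which set the width of collagen fibrils, were higher too: Col11a1 4.57-fold and 3.6-fold, and Col11a2 from 8.95 to 2830 CPM and from 63.2 to 3180 CPM. Col3a1, the chain of soft, extensible collagen, went the other way, at 5266 against 25611 CPM and 1924 against 20383 CPM, lower 4.86-fold (4.56 to 5.19) and 10.6-fold (9.83 to 11.4). So 4 of 7 measured fibrillar collagens were higher and 1 lower in both libraries, with list medians of 1.18 and 1.53 in log2. Col5a1 and Col5a2, the type V chains that seed fibrils, were not called, with ratios of 1.04 to 1.4.

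No member of the list of other collagens was higher on the osteoblast side in both libraries. Col4a1 (basement membrane) stood at 5.27 against 740 CPM and 8.43 against 618 CPM. Col6a2 (beaded filaments) was lower 8.08-fold and 3.77-fold, and Col12a1, which links fibrils in stretched tissue, 6.68-fold and 11.1-fold. These were 3 of 7 measured members, and the list medians were -3.01 and -1.91.

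Helpers of collagen folding and trimming leaned to the osteoblast side. Pcolce, which speeds the trimming of procollagen, stood at 2467 against 639 CPM and 1806 against 435 CPM, higher 3.86-fold and 4.15-fold. Bmp1, the trimming protease, the folding enzymes Fkbp10 and P3h1 and the collagen-gene activator Creb3l1 were higher in both libraries by 2.05-fold to 4.87-fold. Loxl2, a cross-linking oxidase, was lower 3.93-fold and 3.18-fold. That makes 5 higher and 1 lower of 14 measured members, with list medians of 0.56 and 0.92. The collagen chaperone Serpinh1 missed the fold limit, at 1.70-fold and 1.65-fold, and the oxidase Lox was near level at 1.05-fold and 1.16-fold. Of 25 measured genes of the secretory pathway 4 were higher in both libraries, the translocon subunits Ssr1 and Ssr4, the retrieval receptor Kdelr3 and the cargo receptor Lman1, and the chaperone Canx was lower 2.50-fold and 2.44-fold. Medians of that list were 0.40 and 0.34.

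Small proteoglycans that coat fibrils did not go together. Dcn was higher on the osteoblast side, at 3136 against 985 CPM and 2982 against 1480 CPM, 3.19-fold (2.86 to 3.55) and 2.01-fold (1.74 to 2.34). It was held by all 14 distraction and 26 of 27 sham osteoblast-side cells, and by 49 of 61 and 15 of 23 fibroblast-side cells. Fmod, Ogn and Aspn were lower in both libraries, Aspn 6.95-fold and 9.05-fold. Lum was not called at 1.37-fold and 1.41-fold lower, nor was Bgn.

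Many matricellular genes, whose proteins steer cells more than they bear load, were higher on the fibroblast side. Postn (periostin) stood at 1202 CPM on the osteoblast side and 5201 CPM on the fibroblast side after distraction, and at 382 and 4315 CPM after sham surgery. Only 4 osteoblast-side cells in each library held a Postn UMI, and 1 cell held 67.5% and 84.0% of the side's Postn. Tnn (tenascin N) was lower on the osteoblast side 8.05-fold (6.73 to 9.71) and 16.9-fold (13.8 to 20.8). Thbs2, Tgfbi, Sparcl1 and Nov (the CCN-family regulator also called Ccn3) were lower in both libraries as well. Sparc (osteonectin, which binds collagen and mineral) was higher 2.64-fold and 2.65-fold, and Cyr61, another CCN protein, 3.94-fold and 4.69-fold. Thus 6 of 12 measured members were lower and 2 higher, and the list medians were -2.34 and -1.23.

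Of the elastic fibre genes and fibronectin, some were lower on the osteoblast side. Of 9 measured in both libraries 5 were lower and none higher in both: Fbn1 (fibrillin), Fbln1 (fibulin), the TGF-beta-binding proteins Ltbp3 and Ltbp4, and Fn1 (fibronectin). Fn1 stood at 390 against 1870 CPM and 245 against 1221 CPM. Fbln1 was at 0 against 266 CPM after distraction, at least 16.8-fold lower, and at 1 UMI against 51 after sham surgery. Emilin1 went the other way in the sham library alone, where it was called higher at 122 against 28.1 CPM. List medians were -3.07 and -2.31, or -3.13 and -2.32 with genes at 0 set to their bound.

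Several genes were at 0 on the osteoblast side of both libraries. Dpt (dermatopontin, a small protein that binds decorin and collagen) held no UMI in 14 and 27 osteoblast-side cells, against 831 CPM in 51 of 61 and 428 CPM in 9 of 23 fibroblast-side cells. Against a floor of 3 UMIs over the group this is at least 52.6-fold and at least 67.7-fold lower. Gpc3, a membrane proteoglycan that binds growth factors, was at 0 against 327 and 309 CPM, at least 20.7-fold and at least 48.8-fold lower. Nov was at 0 against 127 and 512 CPM. On the other side Slc36a2, an amino acid transporter, was at 221 and 110 CPM in osteoblast-side cells and 0 in fibroblast-side cells, at least 57.7-fold and at least 5.21-fold higher. Fam110d was likewise at 0 on the fibroblast side of both libraries.

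The other genes with the widest gaps in both libraries followed the same division. On the osteoblast side Cpe (carboxypeptidase E, which trims peptide hormones) stood at 1476 against 16.6 CPM and 1648 against 35.1 CPM. The citrate transporter Slc13a5, the adhesion genes Cadm1 and Cdh2 (N-cadherin) and the carbonic anhydrase Car3 were also higher. Cdh2 was 306 against 15.4 CPM and 304 against 7.02 CPM. On the fibroblast side Itm2a, Ptn (pleiotrophin, a secreted growth factor), Igfbp7 and the Wnt ligand Wnt11 were higher. Ptn stood at 2863 CPM and 3585 CPM there, and at 100 and 101 CPM on the osteoblast side.

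Receptors and ligands divided as well. Pth1r, the parathyroid hormone receptor of osteoblasts, was higher on the osteoblast side 6.82-fold and 5.61-fold, and the ligand Pdgfa 4.71-fold (3.15 to 7.06) and 8.90-fold (4.44 to 20.9). The receptors Pdgfra and Pdgfrb were lower: Pdgfra 2.40-fold and 3.86-fold, Pdgfrb 6.63-fold and 10.8-fold. With Igf1, the IGF-binding proteins Igfbp4 and Igfbp7, and the FGF receptor Fgfr2, 6 of 11 measured members of that list were lower and 2 higher. In the Wnt list the receptor Fzd1 and the secreted antagonists or relatives Dkk3 and Sfrp4 were lower in both libraries, 3 of 5 measured. Of 13 measured BMP and TGF-beta genes Bmp1 was higher, and the ligand Tgfb3 and the secreted glycoprotein Fstl1 were lower.

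Among transcription factors of bone, Mef2c was higher 5.77-fold and 4.81-fold. Twist1 and Sox9, which act before or beside the osteoblast fate, were lower. Runx2, the factor that starts that fate, had ratios of 1.13 lower (0.626 to 2.17) and 1.22 lower (0.552 to 2.51), so no difference was detectable at this depth. Inflammatory genes were lower on the osteoblast side for 4 of 8 measured members, Ccl2, Cxcl1, Cxcl2 and Tnfaip6. For Cxcl2 the sham fibroblast side held only 18 UMIs, at a share of cells that is read as background further below. After distraction 8 of 61 fibroblast-side cells held 1705 of its 1765 UMIs. Ccl2, which draws monocytes, stood at 116 against 2936 CPM and 217 against 5066 CPM. Actin-linked genes were lower for 4 of 11 (Tagln, Cnn3, Tpm2 and Cald1), and immediate early or stress genes for 4 of 21, Egr1 among them at 2.48-fold and 2.29-fold. Since 15.3% of all genes measured were lower in both libraries, nothing is read from the count of immediate early or stress genes.

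**Figure D3:**
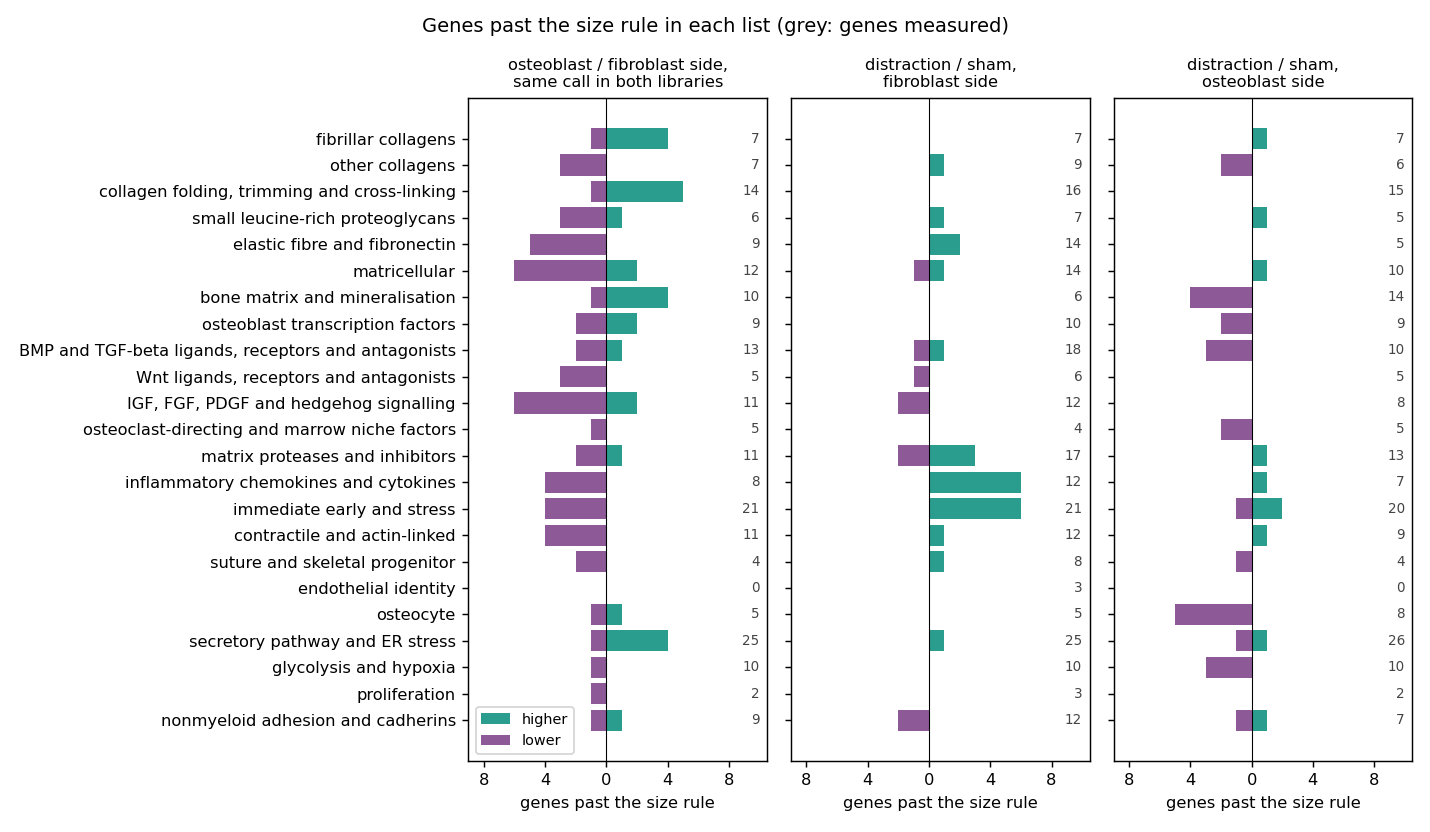
Number of members of each gene list called higher (right) or lower (left) in 3 comparisons: osteoblast side against fibroblast side in both libraries, distraction against sham on the fibroblast side, and distraction against sham on the osteoblast side, with the number measured in grey. Matricellular and elastic fibre genes extend to the lower side of the first comparison, inflammatory genes to the higher side of the second with 6 of 12, and osteocyte genes to the lower side of the third with 5 of 8.

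The fibroblast side was not uniform. Ranked over the 61 distraction and the 23 sham cells by share of the cell's UMIs, Lum, Col12a1, Sparc and Alpl were high in the same cells as Postn. Spearman's rho with Postn was 0.72 and 0.68 for Lum, 0.64 and 0.87 for Col12a1, 0.69 and 0.56 for Sparc, and 0.67 and 0.59 for Alpl, although 24 distraction and 8 sham cells held any Alpl. Igfbp7 gave -0.48 and 0.24, and Gpc3 -0.42 and 0.01, so that no order was shared by the libraries for these genes. The cells of a library share its preparation, and they differ in depth. Cells with no Col3a1 UMI were 1 of 61 (1.64%) in the distraction and 5 of 23 (21.7%) in the sham library. The deepest of these 6 cells held 3228 UMIs. None of the 6 held a UMI of Postn, Tnn, Col12a1, Dcn or Lum either. The rule still counts them on the fibroblast side, so they enter the sham shares given over 23 cells.

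Between the libraries the fibroblast side had near levels of its main collagens and differed in Acta2, C1qtnf3, Rrad and Nov, among others. Of 3167 genes measured, 202 (6.38%) were higher and 104 (3.28%) lower in the distraction cells, with an all-gene median log2 ratio of 0.05. No call was made for any of 7 fibrillar collagens, 16 collagen folding genes, 6 bone matrix genes or 10 bone transcription factors. Col1a1 was 1.22-fold lower (1.19 to 1.25) and Col3a1 1.26-fold higher (1.21 to 1.31), both inside the 2-fold limit. Among the sham cells, 1 of 1214 UMIs held 517 Col1a1 and 5 Dmp1 UMIs. Another, of 3821 UMIs, held 1362 Col1a1 and 7 Ibsp UMIs. Both fall under the limit of 10 Bglap and Ibsp UMIs, and the Col1a1 ratio without them was not computed. With the line between the sides at 0.1% of UMIs, 21 sham cells in place of 23 were on the fibroblast side. Postn stood at 5201 against 4315 CPM, 1.21-fold higher (1.11 to 1.31), and Tnn at 5220 against 4049 CPM. In an alternative, cells were left out with 5 or more UMIs of B cell, macrophage, platelet, osteoclast, Schwann, muscle or chondrocyte lists. In the 10 distraction and 9 sham cells without markers on any of these other-type lists, the log2 ratio of C1qtnf3 turned to -1.27. Acta2, Rrad and Nov kept their direction there without a call. The osteoclast list, which includes Ctsk, reached 5 UMIs in 49 of 61 distraction and 11 of 23 sham cells. Its Ctsk had a UMI in 59 and 18 cells, and its Atp6v0d2 and Ocstamp in none. Without the osteoclast and chondrocyte lists in the filter, 53 and 20 cells were left and C1qtnf3 kept its call.

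Acta2 (smooth muscle actin, made by contractile myofibroblasts and by mural cells) was found on the fibroblast side of the distraction library and not on that of the sham library. It stood at 152 CPM in 18 of 61 cells and at 0 in 23 sham cells, at least 7.23-fold higher. The highest cell held 32 UMIs, 26.9% of the total. The share of cells with an Acta2 UMI was 29.5% against 0%, where 0 of 23 cells, at a limit of 3 counts, allows up to 13.0%, and the exact interval reaches 14.8%. Thinned to 4000 UMIs, with 7 distraction and 10 sham cells left out as too shallow, it was 20.4% (10.6 to 33.5%) of 54 cells against 0 of 13 (0 to 24.7%), so the intervals overlap, and the UMIs left after thinning were too few for a call. B-lineage cells with an Acta2 UMI were 0% and 0.157%, at median depths of 6141 and 5286 UMIs. The mural genes Rgs5, Abcc9, Notch3, Kcnj8 and Myh11 together came to 4 UMIs in the 61 distraction cells, 1 at most in any cell. Of 12 measured actin-linked genes Acta2 was the 1 called, the list median was -0.37, and Tagln, another myofibroblast gene, gave a ratio of 1.44 (0.941 to 2.31).

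C1qtnf3, a secreted protein of the C1q and TNF family, was spread over more cells. It stood at 247 CPM in 33 of 61 distraction cells and 14 CPM in 2 of 23 sham cells, where it rests on 2 UMIs, a ratio of 17.6 (4.80 to 146). This direction turned in the 10 and 9 cells without other-type markers, at a log2 ratio of -1.27. After thinning it was found in 35.2% (22.7 to 49.4%) of distraction and 7.69% (0.195 to 36.0%) of sham cells, against 54.1% and 8.70% unthinned. No B-lineage cell held it in either library. Rrad, a small GTPase that binds calcium channels, stood at 425 CPM in 18 cells against 42.1 CPM in 2 cells, 10.1-fold (4.58 to 27.7). Cemip, which breaks down hyaluronan, was at 128 CPM in 13 cells against 0, at least 6.08-fold. Thbs4, a thrombospondin of tendon, was at 51.2 CPM in 8 cells against 0, at least 2.43-fold. After thinning Cemip was found in 16.7% (7.9 to 29.3%) and Thbs4 in 9.26% (3.1 to 20.3%) of 54 distraction cells. Both were in 0 of 13 sham cells (0 to 24.7%), so the intervals overlap.

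Mmp3 (stromelysin, a matrix protease) stood at 251 CPM against 14 CPM, the latter 2 UMIs, but lay in 9 of 61 cells with 48.0% of the UMIs in 1 cell, and the call was lost without cells holding other-type markers. Plk2, Cxcl10 and Ccnyl1 were at 76.7, 63.9 and 55.0 CPM in distraction and 0 in sham cells. S100a6, a calcium-binding protein, stood at 581 against 63.2 CPM, 9.19-fold (4.80 to 20.2). Fam110a and Sema3c were higher by 9.84-fold (1.69 to 396) and 8.93-fold (1.53 to 360), each over 1 sham UMI. The strips of single cells show Acta2, C1qtnf3 and Rrad raised in subsets of the distraction cells, not in all of them.

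**Figure D4:**
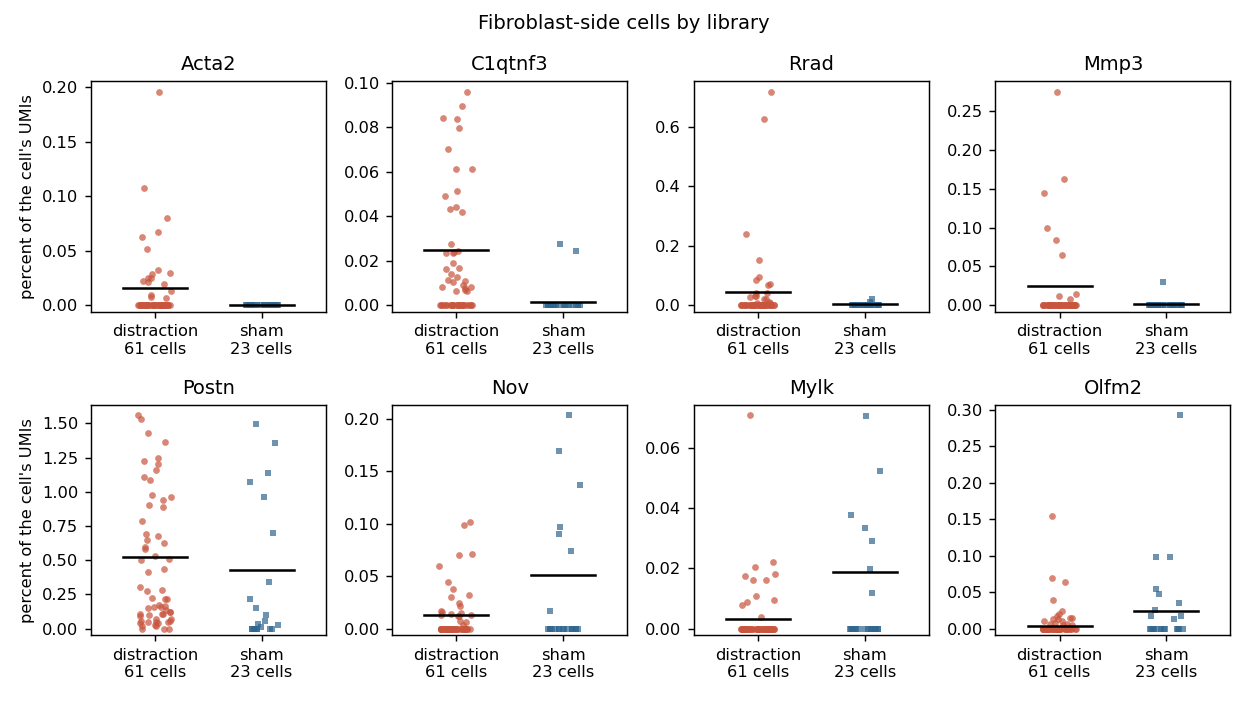
Percent of a cell's UMIs taken by 8 genes in each fibroblast-side cell of the distraction (61 cells) and sham (23 cells) libraries, 1 point a cell, with a bar at the share of the summed UMIs. Acta2 reaches 0.196% in the distraction cells and is 0 in every sham cell, C1qtnf3 has 33 and 2 cells above 0, and Mylk, Olfm2 and Nov have higher bars in the sham library.

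Lower levels in the distraction cells were led by Mylk, Olfm2 and Nov. Mylk (myosin light chain kinase) stood at 32.0 CPM in 12 of 61 cells against 189 CPM in 7 of 23, 5.93-fold lower (3.31 to 10.7), a call lost in the cells without other-type markers and after thinning. Olfm2, an olfactomedin family protein, stood at 42.2 against 246 CPM, 5.82-fold lower (3.51 to 9.66), and Nov at 127 against 512 CPM, 4.05-fold lower (2.95 to 5.53). As shares of cells these were closer: after thinning Olfm2 was found in 22.2% of 54 and 38.5% of 13 cells, Mylk in 9.26% and 38.5%, and Nov in 27.8% and 30.8%. In B-lineage cells Mylk was found in 0.434% and 0.236% of cells, Olfm2 in 0.145% and 0.0787%, and Nov in 0% and 0.0787%. The sham cell with the platelet UMIs held 23 of the 73 Nov UMIs; without cells holding 5 or more UMIs of the B cell, macrophage, platelet, Schwann or muscle lists, the log2 ratio of Nov was -1.97 in place of -2.01. The actin cross-linker Flnc, the junction gene Jam2, the matrix gene Abi3bp, Ptx3, Naa38, Lamtor4, Ddi2, Rsf1 and the glucocorticoid-responsive Tsc22d3 were lower by 3.05-fold to 3.75-fold. Tsc22d3 turned to a log2 ratio of 1.17 in the 10 and 9 cells without markers on any other-type list.

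Matrix and protease genes gave single calls. Aspn was higher at 1246 against 610 CPM, 2.04-fold (1.64 to 2.57), and Eln (elastin) at 311 against 112 CPM, 2.77-fold (1.67 to 4.92). Emilin1, an elastic fibre protein, was 2.96-fold higher, making 2 of 14 measured members of that list. Timp1, which inhibits metalloproteinases, was 784 against 372 CPM, and the protease Adamts1 101 against 21.1 CPM. Plat, an activator of plasminogen, was lower 2.24-fold. In the list of proteases and inhibitors 3 of 17 were higher and 2 lower, with a median of 0.24. Pdgfra, Igfbp5, Sfrp4 and Fstl3 were lower by 2.01-fold to 2.31-fold, and Id1, a BMP target, was higher 3.42-fold (1.28 to 12.9).

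Inflammatory genes were higher for 6 of 12 measured members and lower for none, with a list median of 1.27. Cxcl1 stood at 2152 against 1003 CPM, Cxcl2 at 2257 against 126 CPM, and Il1b at 811 against 14 CPM, the last of these resting on 2 sham UMIs. Ptgs2, Has1 and Cemip were the other 3. Few cells carried Il1b and Cxcl2: 7 of 61 distraction cells held 623 of 634 Il1b UMIs, and 8 held 1705 of 1765 Cxcl2 UMIs. Thinned to 4000 UMIs, Il1b was found in 18.5% and 7.69% of fibroblast-side cells and in 9.83% and 12.4% of B-lineage cells, and Cxcl2 in 44.4% and 23.1% against 26.9% and 26.4%. Unthinned, B-lineage cells held Il1b in 16.4% and 18.4% and Cxcl2 in 43.0% and 38.2%, against 27.9% and 8.70%, and 65.6% and 56.5%, on the fibroblast side. The thinned sham shares lie below those of B-lineage cells and are read as background. Il1b and Cxcl2 are genes of neutrophils as well, and the cells outside the collagen-producing class held 2621 and 1729 CPM of Il1b and 3983 and 2831 CPM of Cxcl2 in the distraction and sham library. Neutrophil-list UMIs moved the same way, 1740 against 561 CPM, and their part in the result was not tested. Without the cells that held 20 or more neutrophil UMIs, 3 members were called, and without the top cell of each gene 3. Ccl2 was not called, at 2936 against 5066 CPM.

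Immediate early and stress genes were higher for 6 of 21 measured members and lower for none, at a list median of 0.22. Atf3, a stress-induced transcription factor, stood at 2246 CPM in 58 of 61 cells against 933 CPM in 14 of 23. Ier2, Nr4a1, Nr4a2, Klf6 and the heat shock protein Hsph1 were higher by 2.23-fold to 2.76-fold. The inducible chaperone Hspa1b, singled out after its values were seen, stood at 10841 against 4526 CPM, where 1 sham cell held 46.8% of the UMIs. The files list it by a gene number that RefSeq pairs with this name, and reads shared with its near copy Hspa1a could have been split between them. These genes are also known to respond to tissue dissociation, and the part of that step was not tested. Endothelial identity genes gave no call among 3 measured of that list, Erg, a transcription factor, having a ratio of 2.98 (0.961 to 14.9).

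On the osteoblast side the libraries were alike in their most abundant bone genes and differed in osteocyte genes. Of 2301 genes measured, 58 (2.52%) were higher and 222 (9.65%) lower in the distraction cells, with a median log2 ratio of -0.15. Bglap stood at 44713 against 38316 CPM, 1.17-fold higher (1.14 to 1.20), Ibsp at 2003 against 2740 CPM, 1.37-fold lower (1.22 to 1.54), and Col1a1 at 178903 against 171362 CPM. None of these passed the 2-fold limit, nor did Alpl, Spp1, Runx2 or Dcn. With 14 and 27 cells, a few cells can set a level, as the spread of single cells shows.

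Osteocyte genes were lower for 5 of 8 measured members and higher for none, with a list median of -2.02. Dmp1 stood at 153 CPM in 6 of 14 distraction cells against 1212 CPM in 15 of 27 sham cells, 7.93-fold lower (5.46 to 11.9). Phex, an endopeptidase of osteocytes that keeps phosphate balance, stood at 58.0 against 371 CPM, 6.4-fold lower (3.49 to 13.1). Pdpn, Cd44 and the homeobox gene Irx5 were lower by 2.17-fold to 2.64-fold. Most of this lay in few cells. Phex at 20 UMIs or more marked 4 of 27 sham cells, 14.8% (4.19 to 33.7%), and 0 of 14 distraction cells, which at a limit of 3 counts allows a share of up to 21.4% and by the exact interval up to 23.2%.

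These 4 cells, singled out after their values were seen, held 29 to 57 Phex, 46 to 178 Ibsp and 29 to 129 Pdpn UMIs, but 2 to 21 of Bglap. Dmp1 ran from 0 to 240 UMIs in them. Col1a1 stayed at 1677 to 2405 UMIs, while Postn, Tnn and Col12a1 were at 0 and Alpl at 1 UMI in all. Without them 1 osteocyte-list member was called lower in place of 5, and 1 member of the bone matrix list in place of 4. Another 3 distraction and 4 sham cells of the osteoblast side held 8 or more Postn UMIs, with 119 to 487 and 89 to 353 of Col3a1. The remaining 11 and 19 cells held Bglap at 57534 and 49979 CPM, 1 and 0 UMIs of Postn, and none of Mgp.

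**Figure D5:**
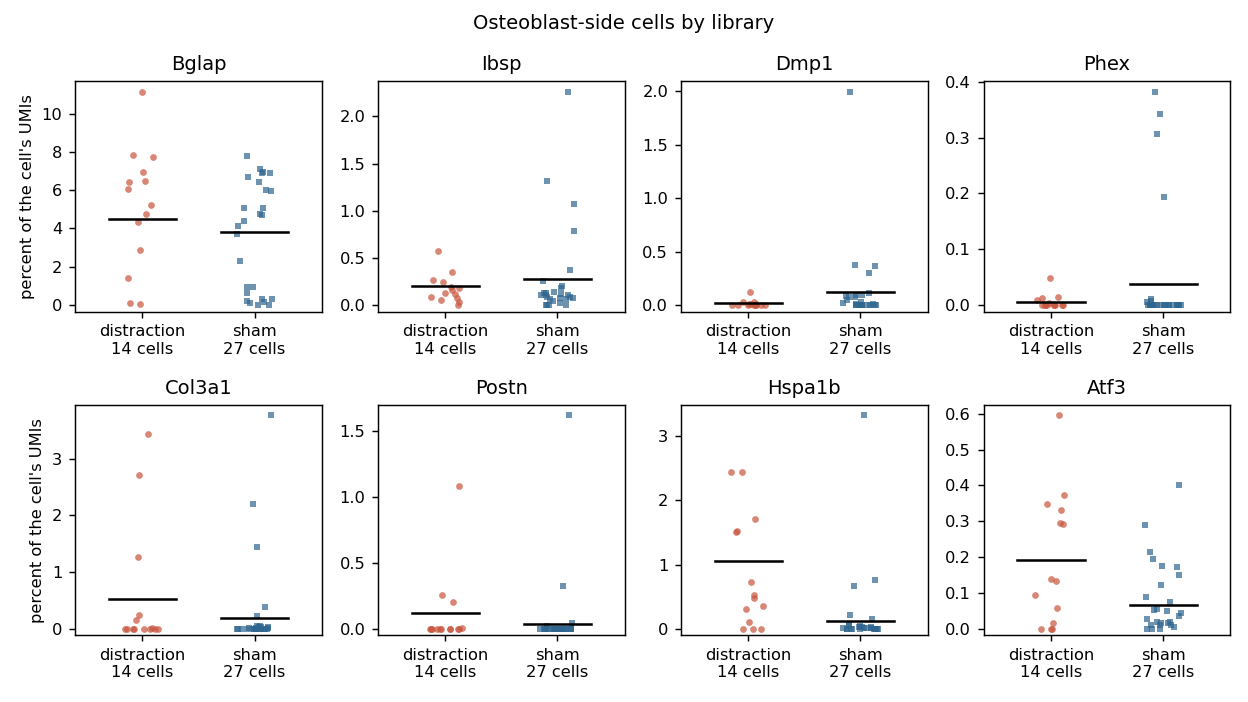
Percent of a cell's UMIs taken by 8 genes in each osteoblast-side cell of the distraction (14 cells) and sham (27 cells) libraries, 1 point a cell, with a bar at the share of the summed UMIs. Phex and Dmp1 rise in a few sham cells, up to 0.382% and 2.0%, Bglap spans both libraries, and Hspa1b has its higher bar in the distraction library.

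The lowest levels in the distraction osteoblast-side cells, set against sham, were of other genes. Cyp26b1, which breaks down retinoic acid, was at 0 in 14 cells against 141 CPM in 12 of 27 cells, at least 8.93-fold lower. Cldn4, the zinc transporter Slc39a8 and the respiratory subunit Cox6a2 were also at 0, and at least 4.4-fold to at least 8.4-fold lower. Dusp6, a phosphatase that ERK signalling induces, stood at 36.9 against 622 CPM, 16.9-fold lower (8.08 to 42.3), a call lost without cells holding other-type markers, and Ddit4, an inhibitor of mTOR signalling, at 1 UMI against 74. Bmp2 stood at 659 against 1878 CPM, 2.85-fold lower (2.36 to 3.46), with 79.2% of the distraction UMIs in 1 cell. Id2 and Id3, known targets of BMP signalling, were 2.69-fold and 3.48-fold lower, so 3 of 10 measured BMP and TGF-beta genes were lower and none higher. Csf1, a growth factor of osteoclast precursors, and Mdk (midkine) were lower, as were the glycolytic enzymes Pgk1 and Eno1 and the hypoxia-induced Ndrg1, 3 of 10 in their list. The transcription factors Dlx5 and Prrx1 were 2.43-fold and 3.20-fold lower, and Enpp1, which makes the mineral inhibitor pyrophosphate, was at 1 UMI against 39.

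Irf1 and heat shock genes were among those at higher levels in the distraction osteoblast-side cells. Irf1, an interferon-response factor, stood at 464 CPM in 6 of 14 cells against 99.1 CPM in 12 of 27. This was 4.68-fold higher (3.25 to 6.82), a call lost when each cell was given equal weight. The 3 distraction cells with 8 or more Postn UMIs held 26, 9 and 28 Irf1 UMIs, and no other distraction cell over 16. The 4 sham cells of that kind held 10, 1, 0 and 8. Hspa1b stood at 10510 against 1256 CPM, 8.37-fold (7.63 to 9.19), with a median of 38 UMIs in the distraction and 2 in the sham cells, and the cells outside the class held 298 and 134 CPM. Hsph1, the transcription regulators Hexim1 and Rgcc, the nuclear pore gene Nup98 and the tubulin Tubb2a were higher by 3.33-fold to 3.98-fold, and Atf3 and Ddit3, genes of the integrated stress response, 2.92-fold and 2.79-fold. Rgcc turned to a log2 ratio of -0.65 in the 6 distraction and 11 sham cells without markers on any other-type list. By list, 2 of 20 immediate early and stress genes were higher (Atf3 and Hsph1) and Dusp1 was lower, and 1 of 26 secretory pathway genes was higher (Ddit3) and Dnajb11 lower. Mitochondrial UMIs, a sign of cell condition, had medians of 11.1% and 9.35% in these cells, and the part of cell condition was not tested. Col3a1 was higher 2.74-fold (2.50 to 3.0), with 48.8% and 38.7% of its UMIs in 1 cell of each library. The 3 and 4 Postn-bearing cells held 923 and 840 Col3a1 UMIs, and the remaining 11 and 19 cells 76 and 72. Of Aspn, the Postn-bearing cells held 33 and 32 UMIs and the remaining cells 1 and 0. Thbs2, Aspn, the metalloproteinase Mmp23, Slc36a2, Flna and Itgb5 were higher by 2.02-fold to 3.08-fold.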

How the data were processed

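The authors deposited UMI counts per gene and cell from 1 distraction and 1 sham library. Version 1.5.1 of the BD WTA Rhapsody Analysis Pipeline produced them, per the file headers. The submitters' processing notes name the build Rnor_6.0 and Seurat 3.6, with no role. The annotation was not given in the sources used here, nor was the cell-calling rule. A gene listed in 1 table counts as 0 in the other. A second deposited file per library lists cell labels and served to count labels shared by the libraries. The tables hold 4889 and 5351 cells.

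The collagen-producing cells, gene lists and tests were chosen with earlier results of these data known. Counts were summed per library and side, divided by the sum over all genes and scaled to 1000000 (CPM). A ratio has the exact 95% interval of 2 Poisson counts and a share the exact Clopper-Pearson interval; a ratio against 0 is a bound against a floor of 3 UMIs over the group. Log2 ratios add 1 CPM. Since the cells of a library are not replicates, no test was run, and a call is a fixed rule of size, checked on simulated counts. The simulated cells of a group differed only by depth and counting error, so this does not check calls that rest on a few cells. A list is described by its counts of calls and its median beside all genes. Genes named are those of the rule, the 12 highest and lowest called between the sides in both libraries or between the libraries on the fibroblast side, the 6 highest and lowest on the osteoblast side, and up to 4 per list; mitochondrial, ribosomal, haemoglobin, immunoglobulin and locus-number genes were not ranked, nor were genes higher in the other cells, a limit that does not hold for genes named from a list. Rfam identifiers were treated as locus numbers, and a few genes of the rule are not reported here. No doublet caller was applied; cells with markers of other types were counted and left out as an alternative. For shares, cells were thinned to 4000 UMIs. Python 3.11.15, numpy 2.4.6, scipy 1.17.1, pandas 2.3.3 and matplotlib 3.10.9 were used. Promoters came from RefSeq (GRCr8).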

Additional observations from a re-analysis of the deposited data

Results flagged for a closer look

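In 11 genes the distraction and sham libraries differed in opposite directions on the fibroblast and the osteoblast side, each past the size rule; this difference between the sides was not tested, and with 1 library a group it cannot be. On a log2 scale of distraction over sham, Dusp6, the ERK-induced phosphatase, was 1.78 on the fibroblast side and -4.04 on the osteoblast side. Plin2, which coats lipid droplets, was 2.0 and -3.97. Thbd (thrombomodulin) was 2.50 and -3.35, and Atic, an enzyme of purine synthesis, 2.05 and -2.11. Ninj1, a membrane adhesion protein, was 1.75 and -1.99, and the galectin Lgals3 1.51 and -1.33. Rgs3, a brake on G protein signalling, was 1.38 and -1.08, and the ubiquitin ligase Mylip 1.23 and -1.34. Ppp6r3, a phosphatase subunit, was 1.10 and -1.49, and Actr3, a part of the actin-branching complex, 1.03 and -1.01. Slc50a1, a sugar transporter, went the other way, at -1.16 and 1.42.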

How the results depend on the processing

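Across the 11 alternatives under which the shares were computed, both shares kept their direction: the ratio of collagen-producing cells ran from 1.81 to 2.11 and that of the osteoblast share from 0.283 to 0.382. Counts of genes moved more. In the order higher on the osteoblast side, higher in distraction fibroblast-side and higher in distraction osteoblast-side cells, then lower in the same 3, they were 83, 202, 58, 349, 104 and 222. Thinned to 4000 UMIs they were 21, 70, 17, 91, 58 and 41. Without cells holding markers on any other-type list, which leaves 10 and 9 fibroblast-side and 6 and 11 osteoblast-side cells, they were 1, 79, 4, 30, 16 and 54. Weighting cells equally gave 428 and 97 genes higher and 236 and 456 lower between the libraries on the fibroblast and osteoblast side. Without the top cell of each gene 55 were higher and 230 lower between the sides, 32 lower on the fibroblast side, and 19 higher and 119 lower on the osteoblast side. With no minimum on CPM or UMIs 551 were lower between the sides, 245 lower on the fibroblast side, and 119 higher and 352 lower on the osteoblast side. With the rule's genes out of the total 216 were lower between the sides, and without cells of 20 or more neutrophil UMIs, an alternative chosen after seeing the data, 43 were higher. Other-type removal on all lists, that of osteoclasts with Ctsk among them, reversed C1qtnf3 (log2 -1.27) and Tsc22d3 (1.17) on the fibroblast side. It also reversed Rgcc (-0.65) on the osteoblast side, and the cause was not tested. No paired analysis was possible because each group is 1 library. The sham fibroblast side has the fewest UMIs (142520) and the distraction osteoblast side the fewest cells (14).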
